A study of Mus musculus with 2 samples.

Results

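Amino acid transporter genes were examined in TgS1 cells, a mouse Schwann cell line with the transgene that the labels give as TTR V30M, a human transthyretin allele of hereditary amyloidosis. Such cells are the glia that ensheath axons outside the brain and spinal cord. There were 2 RNA sequencing libraries, 1 of cells kept for a long time in DMEM, a common basal medium, and 1 of cells kept likewise in SCM, which the labels do not spell out. Both groups share the cell line, the transgene and the library kit, and no group without the transgene is in the comparison. As each medium has 1 library, the differences below could not be set against the spread between replicates, and no test was run.

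The genes were the protein-coding rows whose symbol belongs to the SLC1, SLC7, SLC36, SLC38 or SLC43 families, together with Slc3a1, Slc3a2, Slc6a6, Slc6a9, Slc6a17 and Slc16a10. They numbered 47 of 21821 protein-coding rows and 55323 rows in all. The name pattern also took Slc7a6os, a gene named for its place on the strand opposite Slc7a6, which encodes no transporter. It is counted among the 47 and left out of summed transporter levels, which cover 46 genes.

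Amino acids cross membranes through carriers that differ in substrate, in the ion they use and in whether they exchange one amino acid for another. Sodium-coupled carriers concentrate small neutral amino acids in the cell. Exchangers such as LAT1 then trade these for leucine and other large amino acids. Several carrier genes are known targets of ATF4, the transcription factor that is translated when uncharged tRNA activates the kinase GCN2, and carriers in the lysosome report amino acid supply to the growth kinase complex mTORC1. In glia, carriers are best known for clearing glutamate and glycine and for importing cystine for glutathione.

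Levels are given in FPKM, a fragment measure scaled to the length of the gene and the assigned reads of the library, so levels of different genes can be compared. The libraries held 29085791 reads in DMEM and 36666676 in SCM, recovered from the FPKM steps. A fold is a plain ratio of FPKM, with a 95% exact (Clopper-Pearson) interval from the reads of both libraries. Intervals cover counting error only, and amplified reads are not independent molecules. A gene was measured if it reached 1 FPKM in at least 1 library. It was called 2-fold apart on the scale of log2(FPKM + 1), which understates the ratio of low genes. Where 2 values stand side by side, the first is DMEM and the second SCM.

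Of the 47 genes, 18 were measured, and 5 of these were at least 2-fold lower in SCM while 0 were higher. The 5 were Slc7a1, Slc7a5, Slc38a2, Slc3a2 and Slc6a9, which lie on 5 different chromosomes (5, 8, 15, 19 and 4). Among all measured protein-coding rows, 1.44% were 2-fold lower and 2.48% higher. The log2 ratio lay below 0 in 12 of the 18, against 54.4% of measured protein-coding rows. The median log2 ratio was -0.25 over the 18 genes and -0.03 over protein-coding rows. These numbers describe the genes that passed the filter. Slc7a1, Slc6a9 and Slc1a4 passed it through the DMEM library alone, and Slc43a3 and Slc38a6 through the SCM library alone. In bulk RNA, fewer cells with a transcript and less of it per cell cannot be told apart. Of the other 29 genes, 17 had 0 reads in both libraries, 4 had between 1 and 19 reads and 8 had at least 20 reads in a library.

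**Figure D1:**
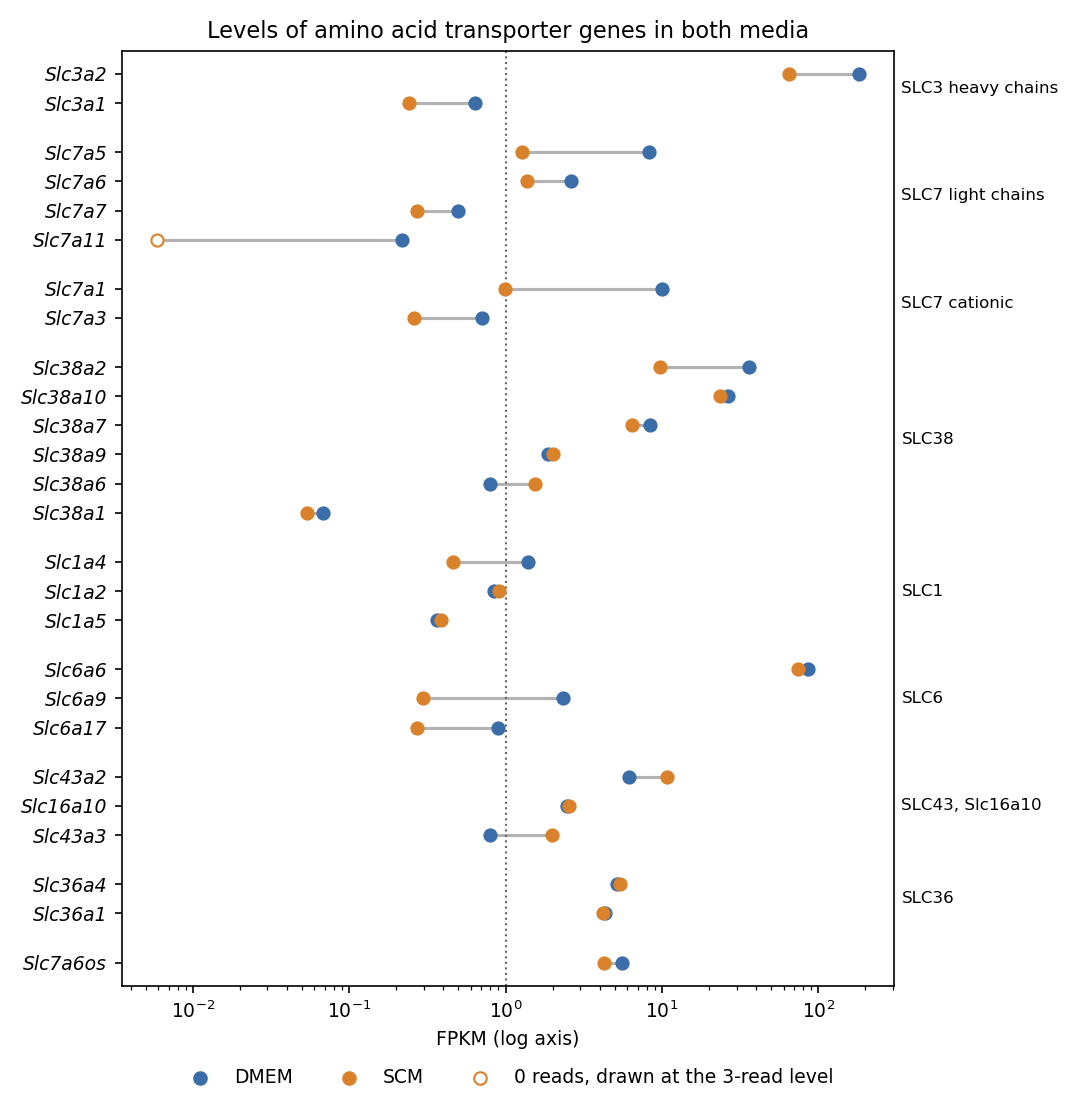
FPKM on a log axis in DMEM (blue) and SCM (orange) for the 26 genes with at least 20 reads in a library, grouped by family, with 1 library per point. The dotted line is 1 FPKM. Slc3a2 and Slc6a6 have the highest levels in both media, and the open circle of Slc7a11 in SCM stands for 0 reads, drawn at the level of 3 reads.

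The Schwann cell label was checked against fixed markers. All 9 Schwann markers were measured, with a summed level of 4305 FPKM in DMEM and 4497 in SCM, and Sox10 had 125.5 and 113.4 FPKM. Of the 6 fibroblast and perineurial markers only Slc2a1 was measured, and of the 5 macrophage markers only Cd68, at 1.34 and 1.45 FPKM. The 4 endothelial, 4 pericyte and muscle and 3 hepatocyte markers had 0 measured. Of the 5 neuronal markers only Tubb3 was measured, at 60.2 and 45.0 FPKM.

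Promoter sequence was examined because the lower genes include known ATF4 targets. ATF4 with a C/EBP partner binds a composite element, searched here as TGATGNAA on both strands. NRF2, the regulator of antioxidant genes, binds an element searched as TGACNNNGC on both strands. RefSeq promoter windows of GRCm38.p6, from 250 bases before to 50 after each start, were held for 35 of the 47 genes, in 49 windows. The composite element was in 3 of the 35 genes, Slc7a11, Slc1a4 and Slc7a7, which is 8.57%, against 4.51% of the 27025 genes with a window. Among all 32851 windows 3.97% held it. Slc7a11 had it at 2 places, the first 66 and the second 47 bases before the start, on opposite strands. Slc7a7 also had it at 2 places of 1 window, 141 bases and 1 base before the start. In Slc1a4 it began 4 bases before the start. The antioxidant element was in 6 genes (17.1%, against 14.0% of all genes and 12.4% of windows), namely Slc36a1, Slc38a2, Slc43a1, Slc6a9, Slc7a1 and Slc7a6. The sequences below are those of 2 genes with the composite element and of 3 genes with large differences in level, all on the minus strand. Capitals mark TGATGNAA in Slc7a11 and Slc1a4 and TGACNNNGC in Slc7a1 and Slc38a2, and Slc3a2 held neither motif in its window. Of the 5 genes called lower, all but Slc7a5 had a window, and of these 4 genes 0 held the composite element and 3 the antioxidant element. Bases outside the windows were not searched. The counts therefore cannot tell whether the lower genes hold either element elsewhere, and nothing is concluded from them. A match is a description of letters and not a measured binding site.
Slc7a11, chr3:50443614-50443713: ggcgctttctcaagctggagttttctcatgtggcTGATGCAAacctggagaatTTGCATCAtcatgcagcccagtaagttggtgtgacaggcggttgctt
Slc1a4, chr11:20332708-20332737: cctccagcgtgcctcctgcgTTGCATCAtc
Slc7a1, chr5:148399905-148400004: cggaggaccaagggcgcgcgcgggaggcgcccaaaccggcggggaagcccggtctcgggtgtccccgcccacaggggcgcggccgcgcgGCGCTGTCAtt
Slc38a2, chr15:96699729-96699828: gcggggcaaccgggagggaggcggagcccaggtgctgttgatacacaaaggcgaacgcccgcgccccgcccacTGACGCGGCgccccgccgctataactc
Slc3a2, chr19:8713898-8713997: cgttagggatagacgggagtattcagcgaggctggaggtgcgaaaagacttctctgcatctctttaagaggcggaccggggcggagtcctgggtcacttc

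The heavy chain gene Slc3a2 encodes CD98, which carries several light chain exchangers to the cell surface. It stood at 181 FPKM in DMEM (18591 reads) against 64.7 in SCM (8368 reads), 2.80-fold lower (2.73 to 2.87). It ranked 130 among all rows in DMEM and 509 in SCM. It was the most abundant of the 46 transporter genes in DMEM, with 46.7% of their summed FPKM, and came after Slc6a6 in SCM, with 30.2%. Slc3a1, the heavy chain of the kidney cystine transporter, was far lower, at 0.636 FPKM (42 reads) and 0.240 FPKM (20 reads). Exons of Slc3a1 overlap those of Prepl on the opposite strand, which had 11.0 and 9.91 FPKM. How the counting treated strand is not given, so the 2 genes may share reads.

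Among the light chains, Slc7a5 and Slc7a6 were measured. Slc7a5 encodes LAT1, the exchanger of leucine and other large neutral amino acids. It stood at 8.24 FPKM in DMEM (889 reads) against 1.28 in SCM (174 reads), 6.44-fold lower (5.47 to 7.62). Slc7a6, whose product exchanges cationic for neutral amino acids, had 2.63 and 1.37 FPKM, 1.93-fold lower (1.63 to 2.29). Slc7a5 thus stood 3.13 times as high as Slc7a6 in DMEM and 0.936 times as high in SCM, where the counting intervals of both levels overlapped. The close relative Slc7a7 was under the filter, at 0.498 FPKM (48 reads) and 0.271 FPKM (33 reads). Its exons overlap those of Oxa1l on the opposite strand, at 5.27 and 7.83 FPKM.

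Slc7a11 encodes xCT, which imports cystine in exchange for glutamate. It had 88 reads (0.217 FPKM) in DMEM and 0 reads in SCM, where 3 reads would be 0.00588 FPKM. Taking 3 reads as the floor in SCM, it was at least 37.0-fold lower there, while the exact interval of the ratio, which also counts the error of the 88 reads, began at 29.4-fold lower. On the log2(FPKM + 1) scale the same reads gave only -0.28, because levels under 1 FPKM are small beside the added 1. Its promoter window, shown above, holds the composite element at 2 places, as does that of Slc7a7.

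The light chains that pair with Slc3a2 (Slc7a5, Slc7a6, Slc7a7, Slc7a8, Slc7a10 and Slc7a11) summed to 11.6 FPKM in DMEM and 2.92 in SCM. Slc7a8 and Slc7a10 had 0 reads in both libraries. The heavy chain transcript therefore stood at 15.6 times the sum of these light chains in DMEM and 22.2 times in SCM. Slc7a9, the partner of Slc3a1, also had 0 reads, as had Slc7a12, Slc7a13 and Slc7a15.

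The cationic carriers of the SLC7 family are known mainly for taking up arginine, lysine and ornithine. Slc7a1, which encodes the widely expressed carrier CAT1, stood at 9.97 FPKM in DMEM (3345 reads) against 0.991 in SCM (419 reads). This was 10.1-fold lower (9.09 to 11.2), and its log2 ratio of -2.46 was the lowest of the 18 measured genes. Its place among all rows was 4189 in DMEM and 11641 in SCM. Slc7a3, which encodes CAT3, was under the filter, at 0.709 FPKM (78 reads) and 0.259 FPKM (36 reads), 2.73-fold lower (1.82 to 4.18). Slc7a2 had 0 reads in both libraries, Slc7a4 had 0 and 5 reads, and Slc7a14 1 and 0 reads. The 5 genes of this class, grouped by family and not by measured uptake, together summed to 10.7 FPKM in DMEM and 1.28 in SCM.

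Of the 11 sodium-coupled neutral carriers of the SLC38 family, 5 were measured and 1 was 2-fold lower. Slc38a2 encodes SNAT2, a carrier of alanine, glutamine and other small neutral amino acids that is known to be induced when amino acids are scarce. It stood at 36.0 FPKM in DMEM (9243 reads) against 9.70 in SCM (3142 reads), 3.71-fold lower (3.56 to 3.86). Slc38a1, its near relative at the plasma membrane, had 34 reads in each library, 0.0678 and 0.0538 FPKM. Slc38a10 was the most abundant of the family in SCM, at 26.5 and 23.4 FPKM. Slc38a2 therefore stood at 1.36 times the level of Slc38a10 in DMEM and 0.415 times in SCM.

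The family members of the lysosome and the remaining SLC38 genes differed less. Slc38a7, which encodes a lysosomal glutamine carrier, stood at 8.44 FPKM in DMEM against 6.48 in SCM, 1.30-fold lower (1.19 to 1.42). Slc38a9, the lysosomal arginine sensor of mTORC1, had 1.87 and 2.03 FPKM, and its interval held 1 (0.993 to 1.18). Slc38a6 was higher in SCM, at 0.791 FPKM (179 reads) and 1.54 FPKM (440 reads), 1.95-fold (1.64 to 2.33), but within 2-fold on the log2(FPKM + 1) scale. Slc38a3 and Slc38a8 had 3 and 2 reads in DMEM and 0 in SCM, and Slc38a4, Slc38a5 and Slc38a11 had 0 reads in both.

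The SLC1 family holds the glutamate carriers of glia and neurons and the neutral exchangers ASCT1 and ASCT2. Slc1a4, which encodes ASCT1, an exchanger of alanine, serine and cysteine, was the 1 measured member, at 1.39 FPKM in DMEM (159 reads) against 0.458 in SCM (66 reads). As a plain ratio it was 3.04-fold lower (2.27 to 4.11), though its log2 ratio of -0.71 kept it within 2-fold on the scale of the calls. Slc1a5, which encodes the glutamine exchanger ASCT2, had 44 and 59 reads, 0.363 and 0.386 FPKM. Slc1a2, the glutamate carrier GLT-1, had 0.838 and 0.907 FPKM, with an interval that held 1 (0.936 to 1.26). Slc1a3, the glutamate carrier GLAST of astrocytes, had 0 reads in both libraries, where 3 reads would be 0.00958 FPKM in SCM and the exact 95% limit is 0.0118. Slc1a1, Slc1a6 and Slc1a7 also had 0 reads.

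The sodium- and chloride-coupled carriers of the SLC6 family were unlike each other. Slc6a6, the taurine transporter, stood at 85.5 FPKM in DMEM against 74.7 in SCM, 1.15-fold lower (1.12 to 1.17), and was the most abundant of the 46 genes in SCM, with 34.8% of the summed FPKM. Slc6a9, the glycine transporter GLYT1, had 2.34 FPKM (350 reads) and 0.297 FPKM (56 reads), 7.88-fold lower in SCM (5.93 to 10.6). Its log2 ratio of -1.36 became -0.70 with a pseudocount of 3 FPKM, which is within 2-fold. Exons of Slc6a9 overlap 3 rows on the opposite strand, B4galt2 at 1.13 and 1.24 FPKM, Ccdc24 at 0.245 and 0.115, and Gm17114 with 0 reads. Their part in its level was not tested. Slc6a17, a carrier of neutral amino acids into synaptic vesicles, was under the filter, at 0.889 FPKM (266 reads) and 0.271 FPKM (102 reads), 3.29-fold lower (2.61 to 4.17).

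Facilitative carriers let amino acids leave or enter down their gradient. None of the 3 measured genes of this class had a log2 ratio below 0. Slc43a2, which encodes LAT4, a carrier of branched-chain amino acids, phenylalanine and methionine, stood at 6.12 FPKM in DMEM (1788 reads) against 10.8 in SCM (3992 reads). It was 1.77-fold higher (1.68 to 1.87) and within 2-fold. Slc43a2 stood at 0.743 times the level of Slc7a5 in DMEM and 8.47 times in SCM. Slc43a3, a family member known to carry purine bases rather than amino acids, had 0.801 FPKM (104 reads) and 1.99 FPKM (326 reads), 2.49-fold higher in plain FPKM (1.99 to 3.13) with a log2 ratio of 0.73. Slc16a10, the aromatic amino acid carrier TAT1, had 2.46 and 2.56 FPKM (ratio interval 0.927 to 1.17), and Slc43a1 had 0 reads.

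The proton-coupled carriers of the SLC36 family differed little between the media. Slc36a1, a carrier of the lysosome, stood at 4.33 FPKM in DMEM against 4.22 in SCM, and Slc36a4 had 5.14 and 5.43 FPKM. Both counting intervals held 1, at 0.882 to 1.08 for Slc36a1 and 0.972 to 1.15 for Slc36a4. Slc36a2 and Slc36a3 had 0 reads. Slc7a6os, the gene that is no transporter, had 5.59 and 4.29 FPKM.

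**Figure D2:**
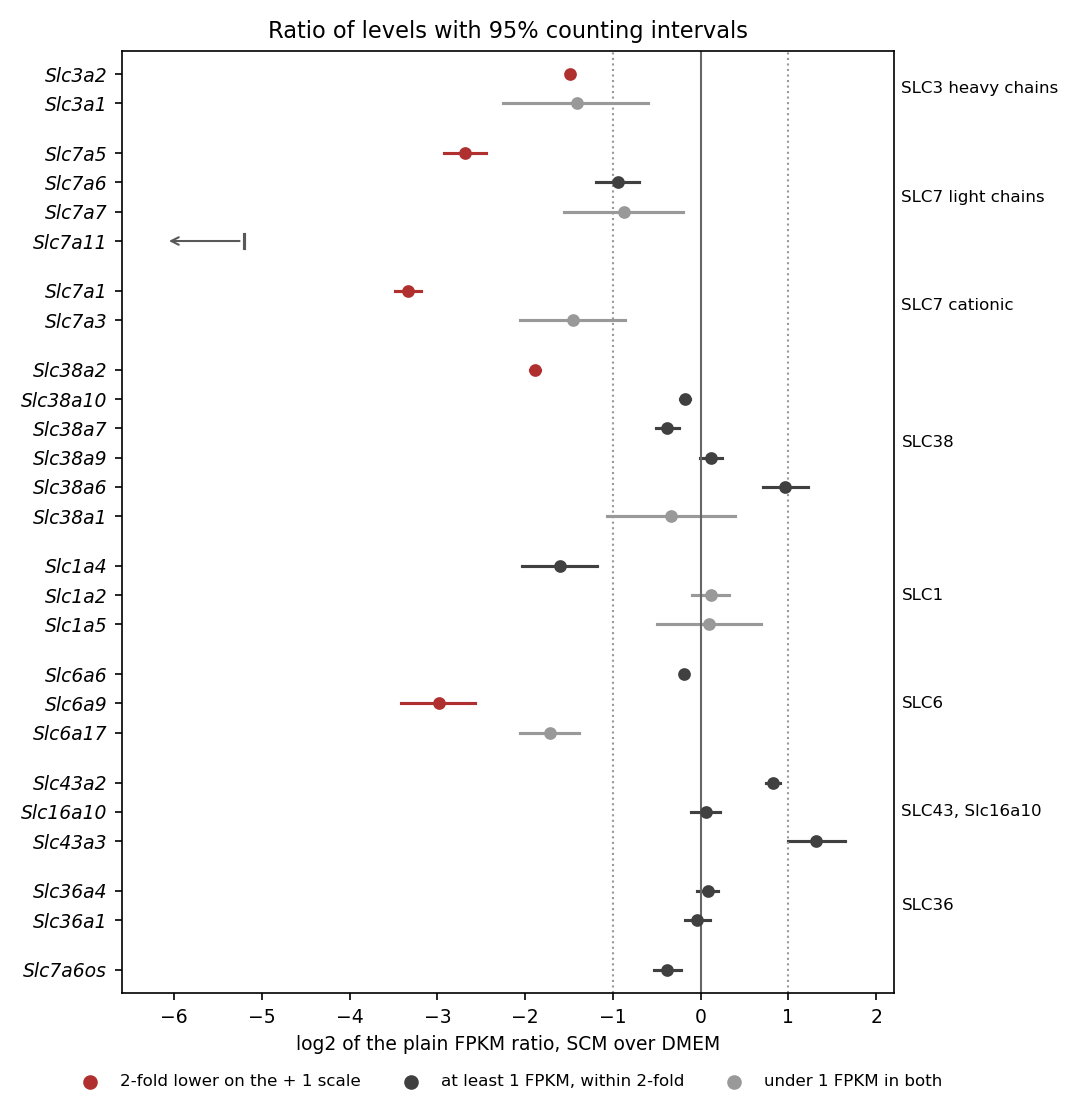
Log2 of the plain FPKM ratio of SCM over DMEM for the same 26 genes, with 95% exact counting intervals as bars, 1 library per medium. Red marks the 5 genes that were 2-fold lower on the log2(FPKM + 1) scale, grey the genes under 1 FPKM in both media, dotted lines 2-fold, and the arrow of Slc7a11 a bound from 3 reads. Slc43a2, Slc43a3 and Slc38a6 have intervals wholly above 0 on this axis.

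The counting intervals were also read for the 26 genes with at least 20 reads in a library, whatever their FPKM. The interval lay wholly below 1 in 16 genes, wholly above 1 in 3 and held 1 in 7. Among the 11728 protein-coding rows with at least 20 reads, 36.5% had an interval wholly below 1 and 31.1% wholly above. In plain FPKM 10 of the 26 were at least 2-fold lower with an interval below 1, and 1 was 2-fold higher with an interval above 1. Among those protein-coding rows these shares were 4.17% lower and 6.28% higher. The 5 genes added to the lower ones in this reading were Slc1a4, Slc3a1, Slc6a17, Slc7a3 and Slc7a11, and the higher one was Slc43a3. All but Slc1a4 of those 5 were under 1 FPKM in both media.

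**Figure D3:**
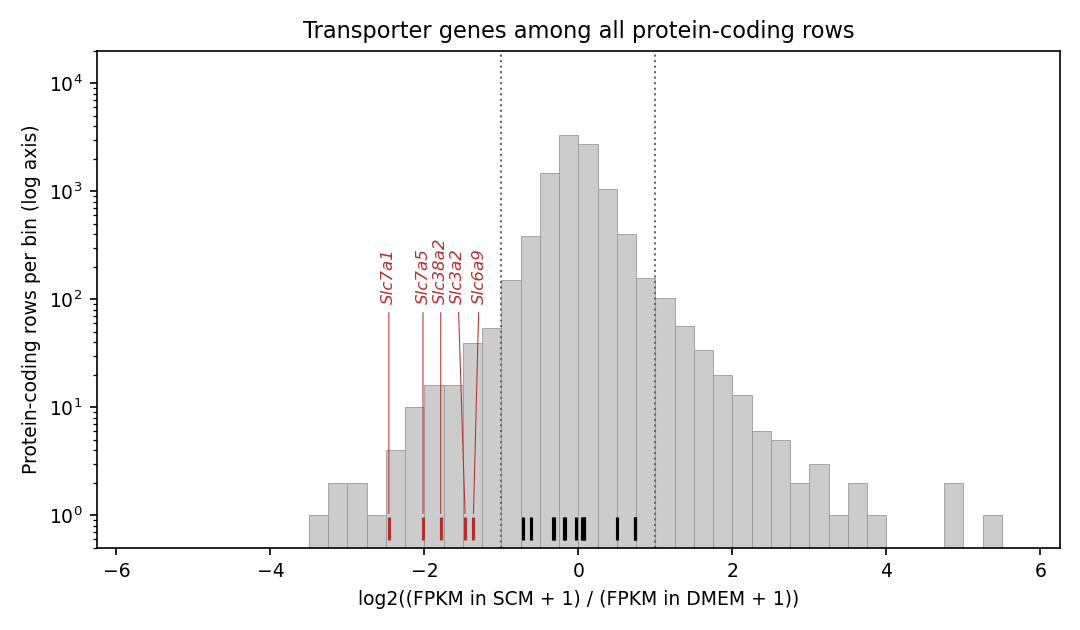
Number of measured protein-coding rows (log axis) per bin of the log2 ratio of FPKM + 1, SCM over DMEM, with the 18 measured genes of the set as ticks at the foot and 2-fold as dotted lines. The red ticks of Slc7a1, Slc7a5, Slc38a2, Slc3a2 and Slc6a9 lie in the lower tail, and the other 13 lie within 2-fold.

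Over the 46 transporter genes, FPKM summed to 388 in DMEM and 214 in SCM. Slc3a2 and Slc6a6 held most of both sums. The shares below are of totals that differ between the media. The heavy chains held 46.9% of the sum in DMEM and 30.3% in SCM. The SLC6 carriers stood at 22.9% and 35.1%, while their own sum was 88.7 FPKM in DMEM and 75.2 in SCM. SLC38 carriers kept a near-equal share, at 19.0% and 20.1%, while their sum was 73.6 FPKM in DMEM and 43.2 in SCM. The facilitative carriers made up 2.42% in DMEM and 7.18% in SCM, with sums of 9.39 and 15.4 FPKM, and the cationic class 2.76% and 0.599%.

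**Figure D4:**
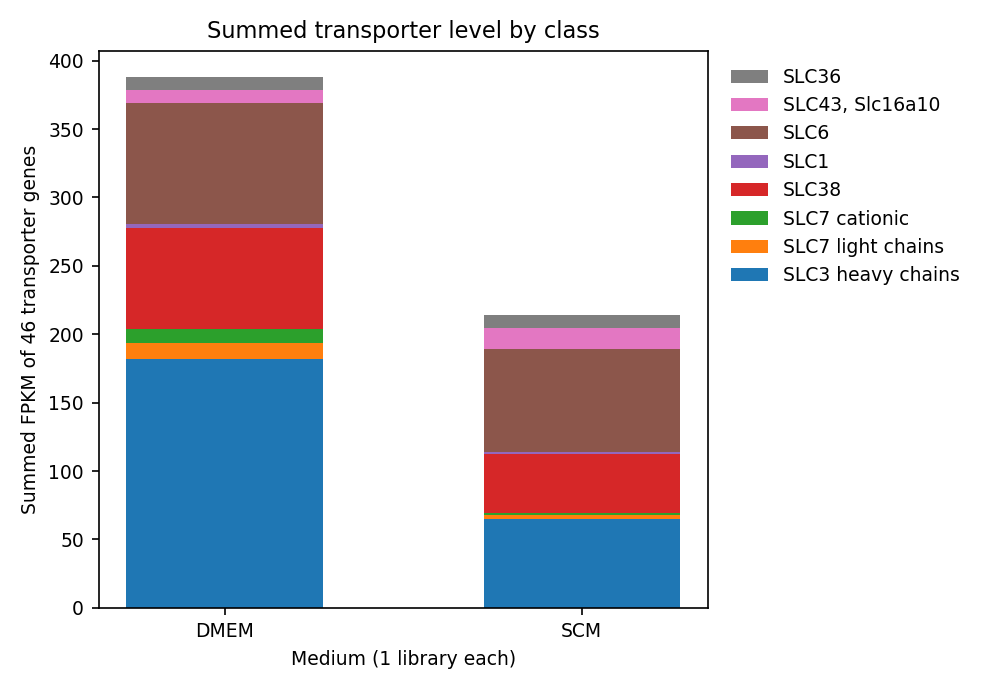
Summed FPKM of the 46 transporter genes in each medium (1 library each), stacked by class. The total is 388 in DMEM and 214 in SCM, and the SLC3 heavy chains, at 182 and 64.9 FPKM, account for the largest part of the gap.

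The order of levels differed between the media. In DMEM the order from the top was Slc3a2, Slc6a6, Slc38a2, Slc38a10 and Slc7a1, and no 2 neighbours among these had overlapping counting intervals. Slc38a7 at 8.44 and Slc7a5 at 8.24 FPKM followed and did not differ beyond their intervals. In SCM the order was Slc6a6, Slc3a2, Slc38a10, Slc43a2 and Slc38a2, again without overlap, and Slc7a5, Slc7a6 and Slc38a6 formed a run of overlapping neighbours between 1.28 and 1.54 FPKM.

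A feature not used to choose the genes is their cellular place in the gene ontology terms of the authors' deposited table. Of the 18 measured genes, 11 carried the plasma membrane term, and all 5 of the 2-fold lower genes were among them. The 7 without that term were Slc1a4, Slc36a4, Slc38a10, Slc38a7, Slc38a9, Slc43a3 and Slc7a6os, with 0 called and a median log2 ratio of -0.17. Among these 7, Slc1a4 was 3.04-fold lower in plain FPKM (2.27 to 4.11) and Slc43a3 2.49-fold higher (1.99 to 3.13). The 2 measured genes with the lysosome term, Slc36a1 and Slc38a9, were within 2-fold. Slc36a1 carried both terms, and Slc38a7, named above as lysosomal, carried neither. The split is one of annotation, and the place of the proteins was not measured. Among all 1695 measured rows with the plasma membrane term, 2.54% were 2-fold lower. Of the other 8 measured protein-coding genes with a term for amino acid transport, outside the 47, 0 were 2-fold apart and the median log2 ratio was 0.08. These were Myc, Sfxn3, Cln3, Slc66a1, Sfxn1, Sfxn2, Sfxn5 and Slc17a5. They overlap the lists below, which hold Myc among the response regulators and Slc66a1, Sfxn1 and Slc17a5 among the other carriers.

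Further genes of amino acid handling were taken from lists, which were chosen with earlier results of these data known. Their counts stand beside the 1.44% of measured protein-coding rows that were 2-fold lower and the 2.48% that were higher. The regulators of the amino acid response had 21 of 22 genes measured, 4 lower, 0 higher and a median log2 ratio of -0.22. Those 4 were Atf4, at 86.1 FPKM in DMEM against 17.3 in SCM, its target Trib3, a pseudokinase gene, at 5.53 and 0.526, Atf5, a related transcription factor gene, at 85.4 and 32.7, and Eif4ebp1, an inhibitor of translation initiation, at 19.3 and 6.94. The kinase gene Eif2ak4 (GCN2) had 3.19 and 2.58 FPKM. Nfe2l2, which encodes NRF2 and had 23.9 and 36.7 FPKM, had the highest ratio in the list, at a log2 ratio of 0.60.

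The list of amino acid sensing and mTORC1 genes had 37 of 38 genes measured, 1 higher, 1 lower and a median log2 ratio of 0.06. Among measured protein-coding rows 2.48% were higher and 1.44% lower. Beside the sensors the list holds Slc38a9, the mTORC1 subunit genes Mtor, Rptor and Mlst8, and the mTORC1 substrate genes Tfeb and Tfe3. The lower gene was Sesn2, a leucine sensor gene, at 12.3 FPKM in DMEM against 4.83 in SCM, 2.55-fold lower (2.32 to 2.82). The higher gene was its relative Sesn1, at 6.44 and 14.3 FPKM, 2.22-fold higher (2.04 to 2.42). Castor1, an arginine sensor gene, had 3.34 and 7.28 FPKM and a log2 ratio of 0.93.

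Among 15 proteins that bind or control these carriers, 12 were measured. The median log2 ratio was 0.03, and 1 gene was higher and 1 lower, against 2.48% and 1.44% of measured protein-coding rows. Laptm4b, which brings LAT1 and CD98 to the lysosome, was 2.27-fold higher (2.16 to 2.38), at 42.5 and 96.4 FPKM. Sgk1, a kinase that acts on carrier turnover, had 3.12 and 0.829 FPKM, 3.76-fold lower (3.12 to 4.56). Of 32 carriers of amino acids, peptides or related compounds outside the name rule, 12 were measured. Of these 0 were 2-fold apart, and their median log2 ratio was 0.08. The most abundant of them was Slc6a8, the creatine transporter gene, at 94.8 and 91.6 FPKM. The most different were Slc25a38, a mitochondrial glycine carrier gene, at 2.43 and 1.56 FPKM, Slc17a5, a lysosomal sialic acid carrier gene, at 6.95 and 9.43, and Slc25a15, a mitochondrial ornithine carrier gene, at 1.77 and 2.32.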

How the data were processed

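Total RNA libraries of TgS1 cells, 1 per medium, were grouped by sample title, and the medium named in each column of the deposited table tied it to its sample. The table gives FPKM values as deposited by the authors. For alignment and counting tools, STAR 2.7.9a and featureCounts 2.0.1 stand in the submitters' processing notes, beside the trimmers cutadapt 3.1, Trimmomatic 0.39 and Trim Galore and the builds GRCm38.p6 and mm10. Parameters and strand setting are not given there. Gene lengths were used per the file headers.

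Whole reads were recovered as FPKM times length over the value of 1 read, and 100% of rows came within 0.01 of a whole number. No count model was fitted with 1 library per medium. The difference was log2(FPKM + 1) in SCM less that in DMEM, computed with Python 3.11.15, pandas 2.3.3 and scipy 1.17.1 and tested on simulated reads. For counts of 0, a floor of 3 reads served only for stated bounds and floor levels and for drawing. The log2 ratios, intervals and sums used the 0 itself. Every measured gene of the set was named, and genes under 1 FPKM with at least 20 reads. From each list the genes past 2-fold or the 3 most different were named. Genes with fewer reads, Slc6a8, Eif2ak4, Nfe2l2 and Castor1 were named after their values were seen. The genes and lists were chosen with earlier results of these data known. Alternatives changed the pseudocount, filter, scaling, unit and threshold.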

Additional observations from a re-analysis of the deposited data

How the results depend on the processing

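The 5 lower genes were counted again under each alternative. The number lower ranged from 4 (pseudocount of 3 FPKM, or a filter of at least 5 FPKM, both without Slc6a9) to 7 (of 24 measured in TPM, or of 18 at a 1.5-fold threshold), each of which added Slc1a4. Among protein-coding rows 2.81% were lower in TPM and 4.99% at 1.5-fold, against 1.44% as reported. Slc7a1, Slc7a5, Slc38a2 and Slc3a2 were called lower under each of these. The number higher was 0 in the report and 1 (Slc43a3) with a pseudocount of 0.1 FPKM or in TPM, and 2 (Slc43a3 and Slc43a2) at 1.5-fold, where 3.92%, 3.62% and 6.44% of protein-coding rows were higher, against 2.48% as reported. In TPM the median log2 ratio was -0.43 over 24 genes, where a pseudocount and filter of 1 TPM weigh less than 1 FPKM. Of 100 recomputed values of single genes, 70 were classed as the same as the reported value and 30 as moved. Of the called ones, 0 changed sign. A filter cannot change the ratio of a gene that passes it. Values under the changed filters were therefore the same by construction, and the 70 overstates stability. The classes do not follow the intervals of the plain ratios given above. The log2 ratio ranged over the alternatives from -3.21 to -1.70 in Slc7a1, -2.60 to -1.39 in Slc7a5 and -2.62 to -0.70 in Slc6a9. Leaving out Slc7a6os, an alternative chosen after seeing the data, gave 5 lower, 0 higher and a median of -0.19. No paired analysis was possible because each medium has 1 library. For the same reason no library could be left out, and depth limits the genes under 20 reads.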
